A study of Homo sapiens with 8 samples.

Results

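The genes of the proteasome were followed in KYSE150 cells after knockdown of HNRNPC. They were taken as every row of the deposited count table named PSMA to PSMG followed by a number and optional letters, with at least 10 reads in 4 or more of the 8 libraries. This gave 47 of 16082 genes, and all 47 passed the filter on low counts that left 12001 genes for testing. KYSE150 is an established line derived from a human squamous carcinoma of the esophagus. Poly(A) RNA was sequenced from 4 samples whose genotype was ShHNRNPC, a short hairpin RNA against the nuclear RNA-binding protein HNRNPC, and from 4 control samples with no further treatment. The labels give neither the hairpin sequence nor what the control cells carried, and they do not state whether each sample was a culture of its own. The p-values therefore reflect the spread among these 8 samples, and that spread may be technical.

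The proteasome degrades ubiquitin-tagged proteins. Its barrel-shaped 20S core is built from alpha rings, which form the gate, around beta rings, which hold the proteolytic sites. A 19S cap sits on the end of the core, with an ATPase base that unfolds the substrate and a lid that removes ubiquitin. In cells exposed to interferon, PSMB8, PSMB9 and PSMB10 can take the places of the constitutive catalytic subunits PSMB5, PSMB6 and PSMB7, and the resulting immunoproteasome cuts peptides favoured for presentation on MHC class I. The transcription factor NFE2L1 is known to raise the constitutive subunits as a set when proteolysis is inhibited.

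Library totals ranged from 28323403 to 34913500 reads. HNRNPC averaged 33.9 ± 1.80 CPM in shHNRNPC libraries and 587 ± 12.5 CPM in control libraries (SD, n = 4 each), where CPM are read counts scaled to library size with edgeR's TMM factors. Of 7 squamous and epithelial markers 6 passed the filter on low counts, and the summed level was 2209 to 2249 CPM in shHNRNPC libraries and 1298 to 1324 CPM in control libraries. The sum was carried by KRT5, CDH1 and KRT17, which were higher in shHNRNPC libraries. TP63 and KRT14 were lower, with 126 to 130 CPM of TP63 in shHNRNPC libraries and 175 to 180 CPM in control libraries, and 4.38 to 5.38 CPM of KRT14 in shHNRNPC libraries and 7.75 to 9.28 CPM in control libraries. SOX2 was near 0 in both groups, at up to 0.0332 CPM in shHNRNPC libraries and up to 0.126 CPM in control libraries. The summed fibroblast markers reached 8.88 CPM in shHNRNPC libraries and 3.65 CPM in control libraries, nearly all of it COL1A1 (7.59 to 8.08 CPM in shHNRNPC libraries and 3.17 to 3.38 CPM in control libraries). The summed endothelial markers reached 1.82 CPM in shHNRNPC libraries and 2.46 CPM in control libraries. For leukocyte markers the sums stayed at or below 0.424 CPM in shHNRNPC libraries and at or below 0.237 CPM in control libraries. The part of these marker shifts in the results that follow was not tested.

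Proteasome genes were higher in knockdown cells more often than not. Of the 47, 33 rose and 9 fell, and 5 did not pass the test (edgeR's quasi-likelihood test, Benjamini-Hochberg adjusted over all tested genes, threshold 0.05). That is 70.2% higher and 19.1% lower, whereas over all 12001 tested genes 38.7% were higher and 38.6% were lower, 77.3% in all. The median log2 fold change was 0.19 over the proteasome genes and -0.01 over all tested genes. At least 1.5-fold higher were 8 of the 47 proteasome genes, against 9.61% of all tested genes, and at least 1.5-fold lower were 0, against 12.2% of all tested genes. Groups did not overlap in 38 of the 47 genes, against 70.8% of all tested genes. In 31 genes every shHNRNPC library lay above every control library and in 7 every shHNRNPC library lay below, against 35.4% of all tested genes in each direction. Added together, the 47 genes took 7792 ± 74.6 CPM in shHNRNPC libraries and 6853 ± 73.1 CPM in control libraries (SD, n = 4 each). In bulk RNA a change in the number of cells that express a gene and a change in RNA per cell cannot be told apart.

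**Figure D1:**
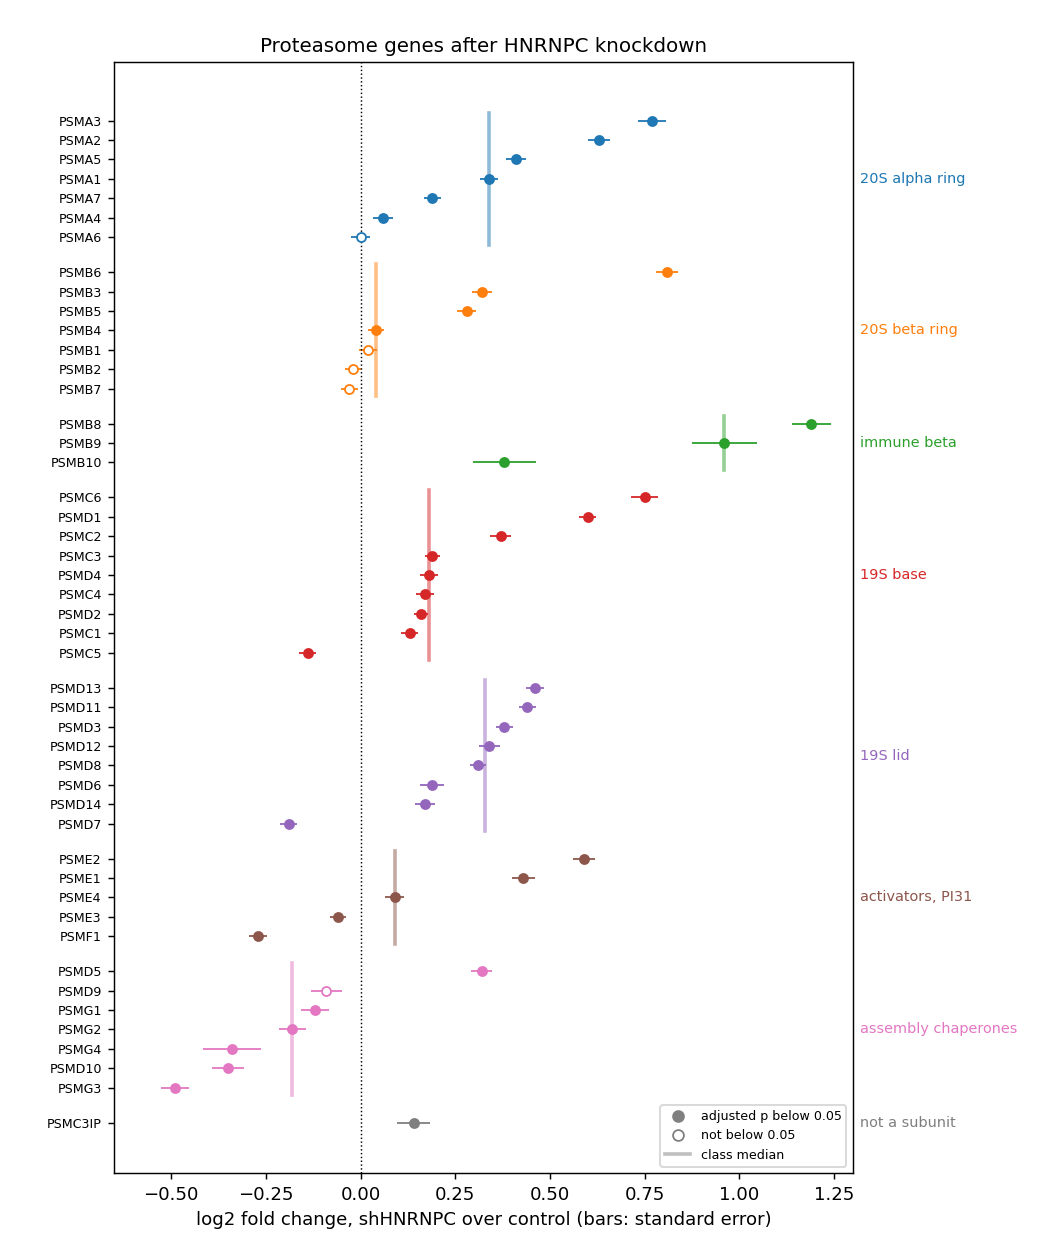
Log2 fold change of each of the 47 genes, shHNRNPC over control (x axis), with standard errors as bars, grouped by role. Filled points passed the adjusted p threshold of 0.05, open points did not, and the thick lines are class medians, which run from -0.18 for the assembly chaperones to 0.96 for the immune subunits.

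The class with the largest median was the immune catalytic subunits, all 3 of which rose, against 38.7% of all tested genes. Their median log2 fold change was 0.96. PSMB8 (chr6:32840717-32844679, minus strand) and PSMB9 (chr6:32854192-32859851, plus strand) lie 9512 bases apart in the MHC region, and PSMB10 lies at chr16:67934506-67936850 (minus strand, RefSeq positions on GRCh38). Their summed level was 77.5 ± 1.46 CPM in shHNRNPC libraries and 39.3 ± 3.21 CPM in control libraries. PSMB8, which replaces the chymotrypsin-like subunit, had 49.1, 50.7, 50.7 and 49.7 CPM in shHNRNPC libraries and 21.3, 21.3, 19.6 and 25.5 CPM in control libraries. The groups were far apart, and the control libraries were the more scattered. It rose by log2 1.19 (SE 0.0518, edgeR adjusted p = 9.8e-27). The antisense gene PSMB8-AS1 and PSMB9 overlap 20.6% of its annotated exon bases, and without a stated strand setting their reads cannot be separated.

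PSMB9, which replaces the caspase-like subunit, had 14.5, 13.2, 14.2 and 16.2 CPM in shHNRNPC libraries and 7.95, 7.76, 6.56 and 7.47 CPM in control libraries. Every knockdown library was above every control library, and PSMB9 rose by log2 0.96 (SE 0.0859, edgeR adjusted p = 7.9e-16). PSMB10, which replaces the trypsin-like subunit, changed least, with 13.0, 12.8, 12.0 and 13.8 CPM in shHNRNPC libraries and 9.28, 11.3, 9.15 and 9.94 CPM in control libraries. Its highest control library came close to its lowest knockdown library (log2 fold change 0.38, SE 0.0828, edgeR adjusted p = 4.6e-05). Another annotated gene overlaps 34.8% of its exon bases. PSMB11, the thymus counterpart of these subunits, fell outside the count minimum, with 0 or 1 read in each library. At the other side of that minimum the least counted of the 47 genes was PSMB9, with at least 210 reads in every library.

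**Figure D2:**
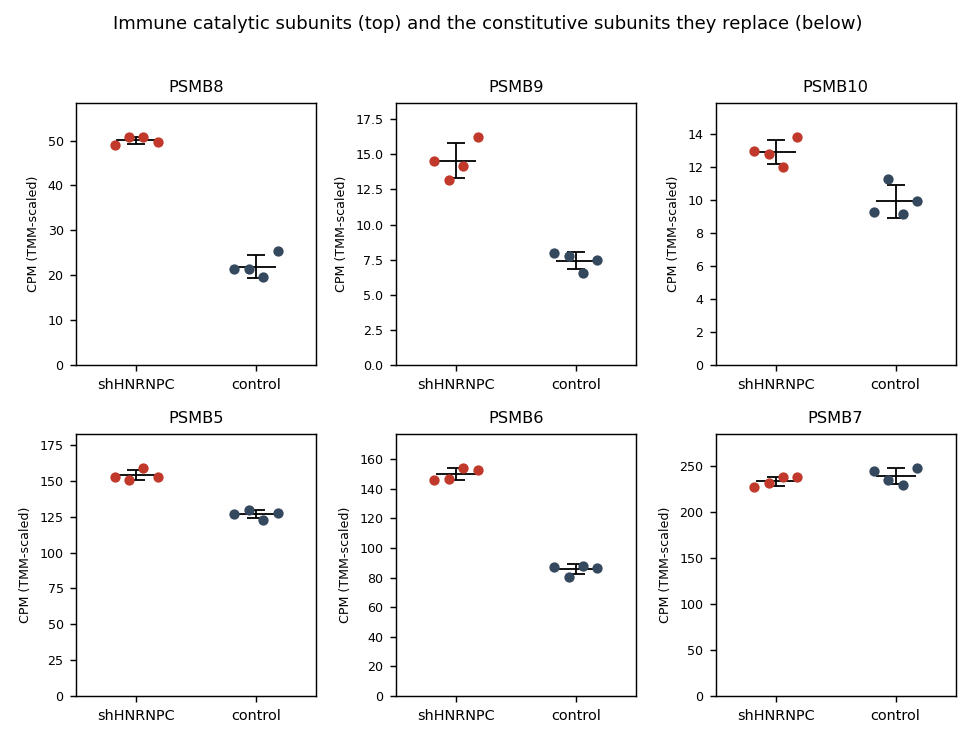
CPM of the 3 immune catalytic subunits (upper row) and of the constitutive subunits they replace (lower row), 1 point per library, with the mean and SD of each group (n = 4) as bars. PSMB8, PSMB9, PSMB10, PSMB5 and PSMB6 do not overlap between shHNRNPC and control libraries, whereas PSMB7 does.

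The constitutive counterparts did not move alike. PSMB6, the caspase-like subunit, had 146, 147, 154 and 153 CPM in shHNRNPC libraries and 87.4, 80.5, 87.7 and 86.6 CPM in control libraries. Its log2 fold change of 0.81 (SE 0.0284, edgeR adjusted p = 1.4e-35) was the largest of the constitutive subunits. PSMB5, the chymotrypsin-like subunit, had 153, 151, 159 and 153 CPM in shHNRNPC libraries and 127, 130, 123 and 128 CPM in control libraries, a log2 fold change of 0.28 (SE 0.0257, edgeR adjusted p = 3.2e-15). PSMB7, the trypsin-like subunit, had 228, 232, 238 and 238 CPM in shHNRNPC libraries and 245, 235, 230 and 248 CPM in control libraries. These ranges overlapped and the gene did not pass the test (log2 fold change -0.03, SE 0.0228, edgeR adjusted p = 0.187).

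Each immune subunit was then set against the constitutive subunit of the same position within each library, a ratio that does not depend on library scaling. The log2 ratio of PSMB8 to PSMB5 reads was -1.62 ± 0.0321 in shHNRNPC libraries and -2.54 ± 0.144 in control libraries (SD, n = 4 each). The difference was 0.92, or a 1.89-fold higher ratio (exact two-sided permutation test, p = 0.0286, adjusted p = 0.0429 over 3 ratios). For PSMB10 and PSMB7 the log2 ratio was -4.18 ± 0.0879 in shHNRNPC libraries and -4.60 ± 0.154 in control libraries, a difference of 0.41 with the same exact p-values. For PSMB9 and PSMB6 it was -3.37 ± 0.104 in shHNRNPC libraries and -3.53 ± 0.157 in control libraries. Here both genes had risen, the libraries overlapped, and the difference of 0.15 did not pass (exact two-sided permutation test, p = 0.143, adjusted p = 0.143). Without control replicate 3 that difference was 0.08, and it ran from 0.07 without shHNRNPC replicates 1 and 4 to 0.24 without shHNRNPC replicates 2 and 3. The p of 0.0286 is the smallest that the 70 assignments of 4 and 4 libraries can give.

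**Figure D3:**
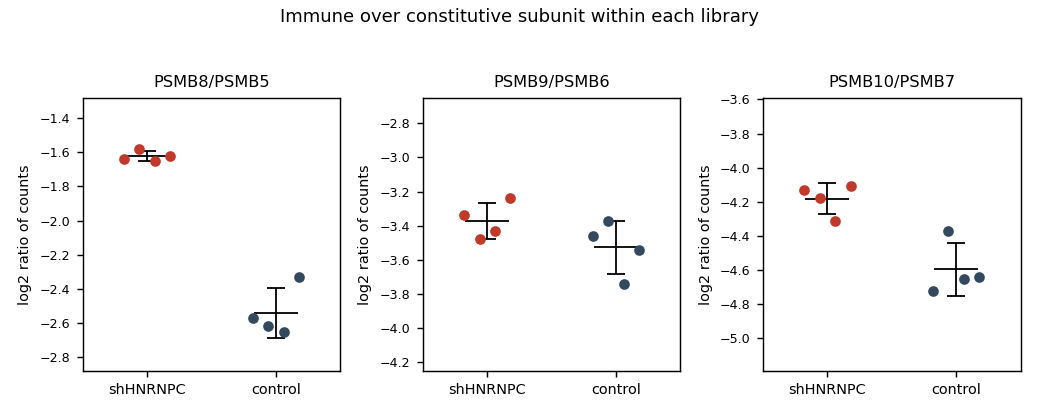
Log2 ratio of immune over constitutive subunit reads within each library (y axis, each panel spanning the same range), 1 point per library with the mean and SD of each group (n = 4). The groups separate for PSMB8/PSMB5 and PSMB10/PSMB7, and overlap for PSMB9/PSMB6.

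Levels of different genes were compared after division by the length of the principal transcript in GENCODE release 29. On that scale PSMB8 made up 27.2 ± 0.443% of the PSMB8 and PSMB5 signal in shHNRNPC libraries and 16.6 ± 1.42% in control libraries (SD, n = 4 each). PSMB9 made up 9.53 ± 0.628% of its pair in shHNRNPC libraries and 8.66 ± 0.838% in control libraries. PSMB10 made up 4.25 ± 0.243% of its pair in shHNRNPC libraries and 3.23 ± 0.346% in control libraries. The constitutive subunit was thus the more abundant RNA at every position in both groups. With the union of all annotated exons as the length, the PSMB8 share was 16.1% in shHNRNPC libraries and 9.22% in control libraries. The PSMB9 share was then 4.36% in shHNRNPC libraries and 3.94% in control libraries, and the PSMB10 share was 5.05% in shHNRNPC libraries and 3.85% in control libraries. The shares thus rest on the gene model, and so does the order of PSMB9 and PSMB10 in shHNRNPC libraries.

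The promoters of the immune subunits are shown because several proteasome genes that rose carry the letters of an interferon response element close to the start of transcription. In RefSeq windows from 250 bases before to 50 bases after each start (GRCh38.p14), a repeat of GAAA with any 2 bases between the copies, on either strand, was found in 7 of the 41 proteasome genes with a window, or 17.1%, against 3.89% of 9890 tested genes and 4.38% of 27305 genes with a window. The most frequent exact form among these matches, GAAAGCGAAA, counted after the matches had been seen, was in 5 of the 41 and in 23 of the 9890 tested genes. Those 5 sites are printed in the direction of the gene, with the motif in capitals, read on the reverse strand in PSMB8 and PSME1. The PSMB8 site begins 4 bases before a RefSeq start at chr6:32844032-32844061 (minus strand), and the PSMB10 site begins 21 bases before one at chr16:67936852-67936881 (minus strand). The PSME1 site begins 5 bases after one at chr14:24136189-24136218 (plus strand). The PSME2 site begins 28 bases before one at chr14:24146619-24146648 (minus strand), and the PSMG4 site begins 33 bases before one at chr6:3258904-3258933 (plus strand).
PSMB8: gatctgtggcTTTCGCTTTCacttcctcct
PSMB10: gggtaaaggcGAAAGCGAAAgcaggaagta
PSME1: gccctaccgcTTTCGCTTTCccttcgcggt
PSME2: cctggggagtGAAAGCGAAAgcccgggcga
PSMG4: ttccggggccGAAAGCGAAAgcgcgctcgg
PSMB8, PSMB10, PSME1 and PSME2 rose and PSMG4 fell. The other 2 genes with a match to the wider motif, PSMA4 and PSMB4, changed by log2 0.06 and 0.04. No match was present in the PSMB9 windows. Of the 7 genes with the wider motif 6 rose and 1 fell (median log2 fold change 0.38), and of the 34 without it 24 rose and 7 fell (median 0.19). Most proteasome genes with a window lack the motif, those that rose included, and its part in these changes was not tested.

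Both interferon-inducible regulators of the core rose. PSME1 and PSME2 encode the alpha and beta chains of PA28, a cap that opens the core without ATP, and lie 4402 bases apart on chromosome 14. PSME2 had 121, 128, 126 and 126 CPM in shHNRNPC libraries and 82.8, 81.6, 79.3 and 87.4 CPM in control libraries (log2 fold change 0.59, SE 0.0294, edgeR adjusted p = 1e-27). PSME1 had 113, 111, 116 and 121 CPM in shHNRNPC libraries and 86.7, 83.4, 83.0 and 89.5 CPM in control libraries (log2 fold change 0.43, SE 0.0301, edgeR adjusted p = 2.9e-20). In both genes the groups were clear of each other. PSME3, the nuclear PA28 gamma chain, averaged 305 ± 4.37 CPM in shHNRNPC libraries and 318 ± 8.06 CPM in control libraries, and its groups overlapped. It passed the test with a log2 fold change of -0.06 (edgeR adjusted p = 0.00706), but not without control replicate 3 (log2 fold change -0.043, edgeR adjusted p = 0.0637) or without shHNRNPC replicates 1 and 4 (-0.0409, edgeR adjusted p = 0.16). PSME4, the large activator PA200, rose by log2 0.09 (edgeR adjusted p = 0.00075).

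PSMF1, which encodes the inhibitor PI31, went the other way. It had 144, 141, 145 and 142 CPM in shHNRNPC libraries and 175, 171, 176 and 169 CPM in control libraries. The groups were clear of each other, with a log2 fold change of -0.27 (SE 0.0241, edgeR adjusted p = 6.9e-16). Of the 5 activators and inhibitors, 3 rose and 2 fell, or 60% and 40%, against 38.7% and 38.6% of all tested genes.

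In the alpha ring 6 of 7 genes rose and 0 fell, against 38.7% and 38.6% of all tested genes. The median log2 fold change was 0.34. PSMA3 had 73.4, 74.2, 75.4 and 76.1 CPM in shHNRNPC libraries and 46.7, 43.2, 43.6 and 41.7 CPM in control libraries (log2 fold change 0.77, SE 0.0369, edgeR adjusted p = 1.6e-28). PSMA2 had 131, 141, 140 and 139 CPM in shHNRNPC libraries and 87.1, 85.4, 90.2 and 91.7 CPM in control libraries (log2 fold change 0.63, SE 0.0286, edgeR adjusted p = 8.6e-30), and other genes overlap 34.6% of its exon bases. In both, all knockdown libraries were high and all control libraries low. PSMA5 (0.41), PSMA1 (0.34, with 24.7% of exon bases overlapped) and PSMA7 (0.19) rose by less on the log2 scale. PSMA6 averaged 162 ± 4.27 CPM in shHNRNPC libraries and 162 ± 3.53 CPM in control libraries and did not pass the test (edgeR adjusted p = 0.996). PSMA4 was at the threshold, with a log2 fold change of 0.06 and an edgeR adjusted p of 0.0447 that exceeded 0.05 in 12 of 17 alternative fits. Log2 fold changes within the ring, whose subunits are built in equal numbers, thus ran from about 0 to 0.77. PSMA8, the testis form, was not analysed here.

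In the beta ring 4 of 7 constitutive genes rose and 0 fell, against 38.7% and 38.6% of all tested genes. The median log2 fold change was 0.04. Besides PSMB6 and PSMB5, PSMB3, a structural subunit, had 149, 152, 161 and 158 CPM in shHNRNPC libraries and 123, 123, 121 and 129 CPM in control libraries (log2 fold change 0.32, SE 0.0264, edgeR adjusted p = 1.8e-17). Its groups did not overlap. PSMB4, also structural, was at the threshold, with a log2 fold change of 0.04 and an edgeR adjusted p of 0.0494 that exceeded 0.05 in 12 of 17 alternative fits. The structural subunits PSMB1 (0.02) and PSMB2 (-0.02) and the catalytic PSMB7 (-0.03) did not pass the test. With other scalings PSMB7 passed as lower (edgeR adjusted p = 0.0246 with library totals and 0.016 with upper-quartile factors), as did PSMB2 with upper-quartile factors (0.043), and the log2 fold change of PSMB1 turned to just below 0. PSMB1 averaged 191 ± 3.55 CPM in shHNRNPC libraries and 188 ± 4.92 CPM in control libraries, and PSMB2 averaged 220 ± 3.40 CPM in shHNRNPC libraries and 224 ± 4.37 CPM in control libraries.

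Most of the base and lid of the 19S cap rose. Of 17 genes 15 rose and 2 fell, or 88.2% and 11.8%, against 38.7% and 38.6% of all tested genes. In all 17 the groups did not overlap, against 70.8% of all tested genes. Their summed level was 3998 ± 31.5 CPM in shHNRNPC libraries and 3426 ± 35.7 CPM in control libraries, 117% of control. Summed over its 14 genes, the constitutive core was at 115% of control. In the base 8 of 9 rose and 1 fell, and the median log2 fold change was 0.18. PSMC6, an ATPase, had 77.9, 76.7, 83.4 and 78.2 CPM in shHNRNPC libraries and 44.6, 46.6, 47.7 and 48.6 CPM in control libraries (log2 fold change 0.75, SE 0.0363, edgeR adjusted p = 2.1e-28). PSMD1, a large scaffold subunit, had 244, 246, 252 and 248 CPM in shHNRNPC libraries and 160, 167, 164 and 163 CPM in control libraries (log2 fold change 0.60, SE 0.0224, edgeR adjusted p = 4.7e-34). These 2 genes stood apart from the remaining members of the base that rose, whose log2 fold changes ran from 0.13 for PSMC1 to 0.37 for PSMC2.

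Between those limits lay the ATPases PSMC3 (0.19) and PSMC4 (0.17), the scaffold PSMD2 (0.16), which binds ubiquitin-like domains, and the ubiquitin receptor PSMD4 (0.18). The other ATPase, PSMC5, had 214, 217, 220 and 216 CPM in shHNRNPC libraries and 246, 238, 231 and 243 CPM in control libraries, a log2 fold change of -0.14 (edgeR adjusted p = 4.2e-08). It was the only base gene that fell, although it occupies the same ATPase ring as PSMC6. The value of PSMC1 is uncertain, since another gene overlaps 75.8% of its exon bases and 13 pseudogenes named after it are annotated.

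In the lid 7 of 8 genes rose and 1 fell, against 38.7% and 38.6% of all tested genes. The median log2 fold change was 0.33. PSMD13 had 229, 219, 221 and 221 CPM in shHNRNPC libraries and 163, 162, 154 and 165 CPM in control libraries (log2 fold change 0.46, SE 0.0238, edgeR adjusted p = 5.8e-27). PSMD11 had 254, 253, 242 and 246 CPM in shHNRNPC libraries and 186, 179, 184 and 183 CPM in control libraries (log2 fold change 0.44, SE 0.0225, edgeR adjusted p = 3.4e-27). Both are structural subunits of the lid, and their groups were clear of each other. PSMD3 (0.38), PSMD12 (0.34), PSMD8 (0.31) and PSMD6 (0.19) rose as well. PSMD14, the deubiquitinase that clips ubiquitin chains from substrates, rose by log2 0.17 (edgeR adjusted p = 2.7e-08). Its partner PSMD7, with which it forms a dimer, had 227, 219, 235 and 237 CPM in shHNRNPC libraries and 261, 265, 255 and 264 CPM in control libraries. PSMD7 fell (log2 fold change -0.19, edgeR adjusted p = 5.2e-11), with 30.7% of its exon bases overlapped by another gene.

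**Figure D4:**
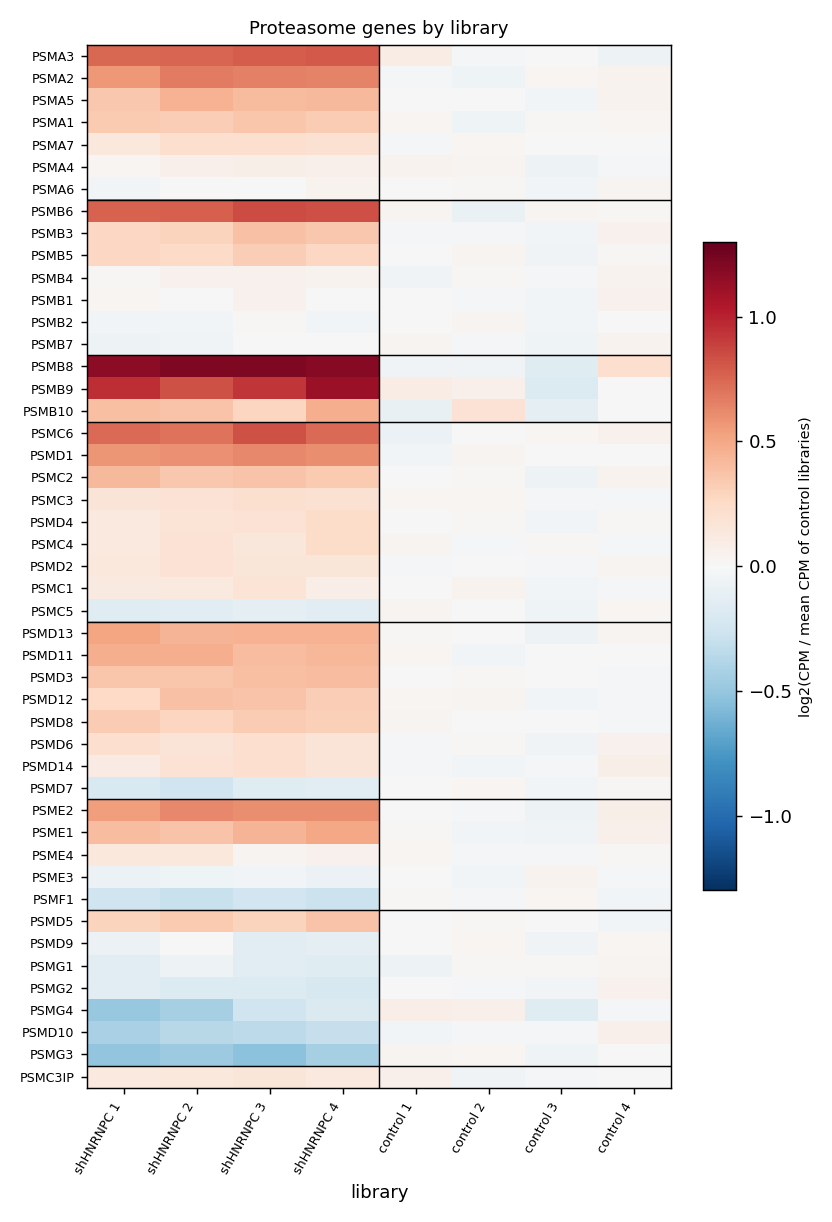
Level of each proteasome gene in each library as log2 of CPM over the mean CPM of the control libraries (colour), with the 4 shHNRNPC libraries in the left columns and the 4 control libraries in the right columns, grouped by role. Averaged over the shHNRNPC libraries, PSMB8 and PSMB9 are the most raised genes and PSMG3 and PSMD10 the most lowered.

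The assembly chaperones were the class that fell. They help build the particle and are absent from the mature one. Of 7 genes 5 fell and 1 rose (median log2 fold change -0.18), against 38.6% lower and 38.7% higher over all tested genes. Their summed level was 359 ± 6.15 CPM in shHNRNPC libraries and 384 ± 4.79 CPM in control libraries. All 4 PSMG genes, whose products pair to guide the alpha ring, fell. PSMG3 had 48.3, 49.6, 47.7 and 51.1 CPM in shHNRNPC libraries and 70.6, 70.1, 66.4 and 68.8 CPM in control libraries (log2 fold change -0.49, SE 0.0362, edgeR adjusted p = 2.8e-19). Its partner PSMG4 had 10.9, 11.4, 12.8 and 13.5 CPM in shHNRNPC libraries and 16.3, 16.1, 13.8 and 15.2 CPM in control libraries (log2 fold change -0.34, SE 0.0764, edgeR adjusted p = 7.4e-05), and the gap between the groups was narrow. The other pair changed less, by log2 -0.18 for PSMG2 and -0.12 for PSMG1 (edgeR adjusted p = 1.6e-05 and 0.00254).

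Among the chaperones of the base, PSMD10, known as gankyrin, had 35.6, 37.1, 37.6 and 38.6 CPM in shHNRNPC libraries and 46.6, 46.7, 47.3 and 50 CPM in control libraries (log2 fold change -0.35, SE 0.0422, edgeR adjusted p = 2.5e-11). PSMD5 rose, averaging 112 ± 2.81 CPM in shHNRNPC libraries and 89.8 ± 1.41 CPM in control libraries (log2 fold change 0.32, edgeR adjusted p = 4.4e-16). PSMD9 averaged 44.3 ± 2.05 CPM in shHNRNPC libraries and 47.0 ± 0.987 CPM in control libraries and did not pass (edgeR adjusted p = 0.054), although it did in 5 of the 17 alternative fits. Other genes overlap 22.6% of its exon bases. PSMC3IP fits the naming pattern but encodes a meiotic recombination factor that was named for binding PSMC3. It rose by log2 0.14 (edgeR adjusted p = 0.0035), with 29.9% of its exon bases overlapped by MLX, and without it 32 of 46 genes rose.

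**Figure D5:**
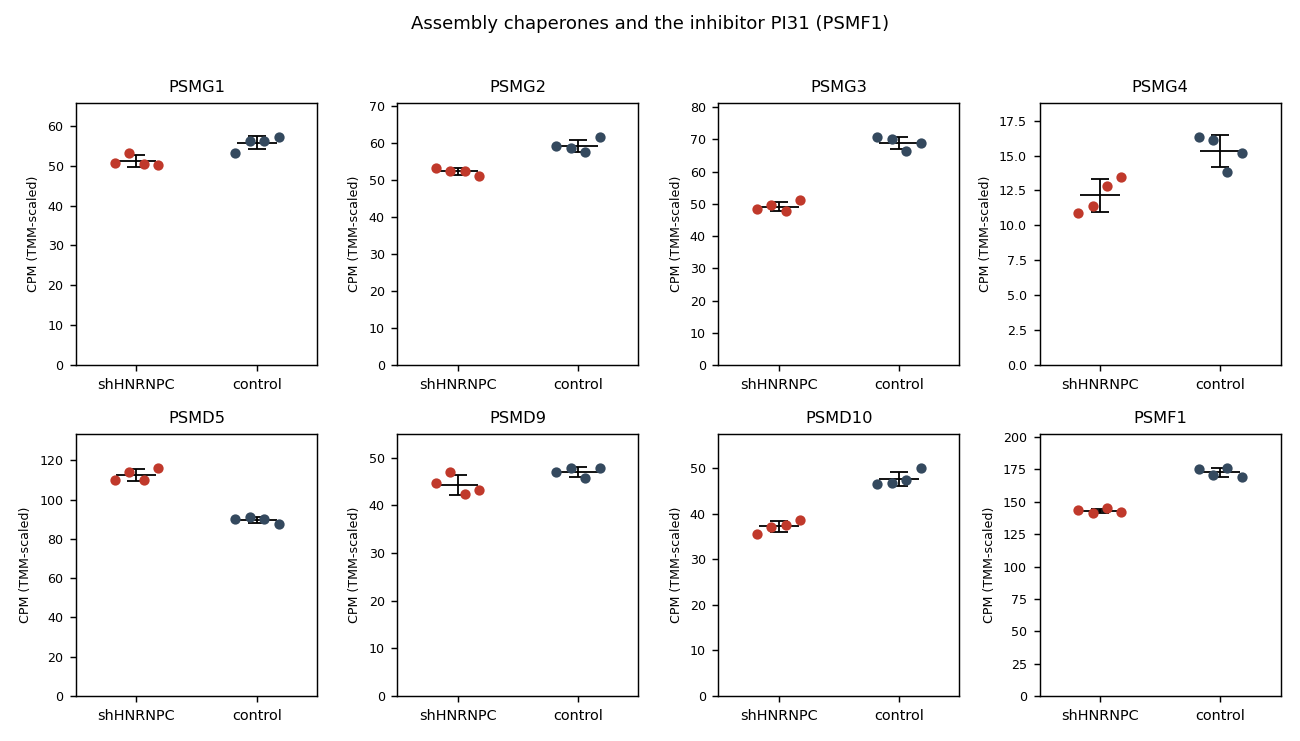
CPM of the 7 assembly chaperones and of the inhibitor PSMF1, 1 point per library, with the mean and SD of each group (n = 4) as bars. PSMG2, PSMG3, PSMG4, PSMD10 and PSMF1 lie lower in every shHNRNPC library than in any control library, PSMD5 lies higher, and PSMG1 and PSMD9 overlap.

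Factors that work with the proteasome but lack a PSM name were taken from lists chosen with earlier results of these data known. Of 13 subunits and associated factors 6 rose and 2 fell (median log2 fold change 0.08). That is 46.2% and 15.4%, against 38.7% and 38.6% of all tested genes. POMP, the maturation factor that helps the beta ring form and is known to be raised by interferon, had 132, 139, 146 and 134 CPM in shHNRNPC libraries and 84.6, 88.2, 84.4 and 93.3 CPM in control libraries. It rose by log2 0.65 (SE 0.0309, edgeR adjusted p = 7.5e-25), unlike the PSMG chaperones. ECPAS, a proteasome adaptor, fell by 0.37 on the log2 scale (edgeR adjusted p = 3e-24). The ubiquitin receptor ADRM1, chosen after its values were seen, averaged 218 ± 5.79 CPM in shHNRNPC libraries and 217 ± 7.04 CPM in control libraries. Of 10 shuttle and unfolding factors 7 were called higher and 1 lower (median 0.11), led by the unfoldase VCP (0.56) and the shuttle UBQLN1 (0.43). Of 6 listed genes for ubiquitin and its activating enzymes 5 were tested, and the ubiquitin gene UBB was not. Of the 5 tested 2 rose and 2 fell, 40% each and close to the shares over all tested genes. Among them were UBA1 (0.40) and RPS27A (-0.34), a fusion of ubiquitin with a ribosomal protein.

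Of 9 genes around NFE2L1, namely NFE2L1, its relative NFE2L2, the factors DDI2, NGLY1, SEL1L and SYVN1 that process or degrade it, and the small MAF partners MAFF, MAFG and MAFK, 1 rose and 5 fell (median log2 fold change -0.11). That is 11.1% higher and 55.6% lower, against 38.7% and 38.6% of all tested genes. Of the 4 processing factors DDI2 rose, NGLY1 fell, and SEL1L and SYVN1 did not pass the test. NFE2L1 itself, chosen after its values were seen, averaged 206 ± 3.53 CPM in shHNRNPC libraries and 225 ± 4.97 CPM in control libraries (log2 fold change -0.13, edgeR adjusted p = 5.2e-07). DDI2, the protease that cleaves NFE2L1 into its active form, rose by log2 0.84 (edgeR adjusted p = 1.2e-29), with 72.4 ± 1.62 CPM in shHNRNPC libraries and 40.6 ± 2.07 CPM in control libraries. MAFF, a small MAF protein that can pair with it, fell to 26.7 ± 0.136 CPM in shHNRNPC libraries, against 45.1 ± 1.24 CPM in control libraries (log2 fold change -0.76, edgeR adjusted p = 9.3e-24). RNA levels do not show how much NFE2L1 protein was active.

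The letters TGACNNNGC, the core of the antioxidant response element that NFE2L1 binds, were found on either strand in the windows of 15 of 41 proteasome genes, or 36.6%, against 19.4% of tested genes and 16.1% of all genes with a window. Sites of constitutive subunits on the gene's own strand and before a RefSeq start are shown, with the match in capitals, at chr15:78540650-78540679 (plus strand), chr17:38752627-38752656 (plus strand), chr17:39980760-39980789 (plus strand) and chr17:67366723-67366752 (minus strand).
PSMA4: gtgggcacgaTGACTCTGCaccgcctcctc
PSMB3: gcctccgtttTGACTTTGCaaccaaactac
PSMD3: tcccctttgtTGACTCGGCcatcggcctgc
PSMD12: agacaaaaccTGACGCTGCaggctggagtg
The printed genes were all called higher, PSMA4 only at the threshold. Matches on the other strand, after the start or outside the constitutive subunits are not printed. Among them are those of PSMC5, PSMG1 and PSMG2, which fell (log2 fold change -0.14, -0.12 and -0.18). PSMG1 and PSMG2 carry their match on the gene's own strand before a start. So do PSMD5, PSME1 and PSME2, which rose, and PSMD9, which did not pass the test. Of the 15 genes with these letters 11 rose and 3 fell (median log2 fold change 0.32), and of the 26 without them 19 rose and 5 fell (median 0.19). CCAAT, the letters bound by NF-Y, was in 20 of 41 proteasome genes, or 48.8%, against 43.4% of tested genes. Those 20 had a median log2 fold change of 0.19, and the 21 without it 0.32.

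Genes that handle peptides for MHC class I rose beside the immune subunits, 8 of 9 of them, with 1 lower (median log2 fold change 0.63). Over all tested genes 38.7% were higher and 38.6% lower. TAPBP, the peptide loading factor tapasin, averaged 116 ± 1.24 CPM in shHNRNPC libraries and 52.7 ± 3.36 CPM in control libraries (log2 fold change 1.14, edgeR adjusted p = 3.4e-39). NLRC5, a transactivator of class I genes, averaged 50.6 ± 2.67 CPM in shHNRNPC libraries and 23.7 ± 1.17 CPM in control libraries (log2 fold change 1.09, edgeR adjusted p = 9.7e-31). The peptide transporter gene TAP1, chosen after its values were seen, lies 487 bases from PSMB9 on chromosome 6. It averaged 59.2 ± 1.91 CPM in shHNRNPC libraries and 28.8 ± 1.86 CPM in control libraries (log2 fold change 1.04), close in size to the change of PSMB9.

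The 7-base word GAATGAT was picked earlier from these same libraries as frequent in the 3' UTRs of genes that fell. It was sought in annotated 3' UTRs of at least 50 bases, and was present in 8 of the 46 proteasome genes with such a 3' UTR. The carriers were PSMA2, PSMA5, PSMC1, PSMD9, PSMD10, PSME1, PSMF1 and PSMG1, of which 4 rose and 3 fell (median log2 fold change 0.02). Of the 38 without the word 28 rose and 6 fell (median 0.19). Over all tested genes 404 of 1493 carriers rose and 810 fell, while 4129 of 10113 genes without it rose and 3673 fell. The part of the word in these changes was not tested.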

How the data were processed

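Poly(A) RNA of 4 shHNRNPC and 4 control samples was analysed from the read counts per gene that the authors deposited, which are whole numbers and not normalised. The series design text names fastp for discarding low-quality reads, and the submitters' processing notes name hg38 as the build. Not given in the sources used here were the aligner, counter, annotation and strand setting.

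Genes were kept with filterByExpr (minimum count 10, total 15), scaled with TMM factors and compared by the quasi-likelihood F test of edgeR on the group term, with Benjamini-Hochberg adjustment over all tested genes. Each standard error came from the log2 fold change and the square root of its F. The fit was checked on simulated counts. Software was R 4.3.3, edgeR 4.0.16, DESeq2 1.42.0 and Python 3.11.15 with scipy 1.17.1. Positions and promoter windows came from RefSeq (GRCh38.p14), lengths, exon overlaps and 3' UTRs from GENCODE release 29.

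The members and lists were chosen with earlier results of these data known. All 47 members are named. The immune catalytic subunits, their counterparts and the 2 largest called changes of each class have values per library, and each other list gave its 2 largest called changes. Replicates differed by more than sampling noise (chi-square per degree of freedom 2.66 to 3.70 within groups). Alternatives covered scaling, filters, DESeq2, a replicate block and left-out libraries.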

Additional observations from a re-analysis of the deposited data

Results flagged for a closer look

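In 6 of 112 groups of 4 libraries examined, 1 library lay far from the other 3. Chance alone flags about 1 group in 20. In the shHNRNPC group these were PSMB2 in replicate 3 (226 CPM, others 218 to 219), PSMG1 in replicate 2 (53.3 CPM, others 50.1 to 50.7) and DDI2 in replicate 2 (74.8 CPM, others 71.5 to 71.6). In the control group they were PSMB6 in replicate 2 (80.5 CPM, others 86.6 to 87.7), PSMD14 in replicate 4 (172 CPM, others 159 to 161) and PSMD4 in replicate 3 (190 CPM, others 196 to 197).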

How the results depend on the processing

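Of the 42 called proteasome genes, 39 kept their direction and call in all 17 alternative fits. The exceptions were PSMA4, PSMB4 and PSME3. The number that rose was 31 to 33 and the number that fell 8 to 12, with 31 and 9 by DESeq2. With the replicate block 31 rose and 9 fell, and PSMA4 and PSMB4 lost their calls (edgeR adjusted p = 0.0557 and 0.0631). Libraries with the same number did not deviate together (correlations -0.0552 to 0.017). This cannot show whether they were handled together, since a small shared effect could be missed. With library totals alone or upper-quartile factors the median of all genes moved by -0.0215 and -0.0267. Class medians then became 0.319 and 0.314 for the alpha ring, 0.023 and 0.018 for the beta ring, -0.199 and -0.204 for the assembly chaperones, and 0.300 for the lid with upper-quartile factors. Without shHNRNPC replicates 1 and 4 the beta ring median was 0.063. Leaving out 1 library gave medians of 0.321 to 0.351 for the alpha ring, 0.030 to 0.062 for the beta ring and -0.189 to -0.157 for the assembly chaperones. The uncalled PSMA6 turned to 0.000858 with RLE factors, 0.00207 with DESeq2, 4.64e-06 without shHNRNPC replicates 1 and 4, 0.00478 without replicates 2 and 3, and -0.0131 to 0.0162 without 1 library. The uncalled PSMB1 turned to -0.000589 with library totals and -0.00581 with upper-quartile factors. The PSMB8/PSMB5 difference was 0.88 to 0.99 and the PSMB10/PSMB7 difference 0.37 to 0.49 without 1 library, and the PSMB9/PSMB6 difference 0.08 to 0.21, where the exact p cannot fall below 0.0571. Without shHNRNPC replicates 1 and 4 they were 0.93 and 0.35, and without replicates 2 and 3 0.91 and 0.48, where the exact p cannot fall below 0.133. The cause of these shifts was not tested.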
